A study of Homo sapiens with 6 samples.

Results

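The genes described here are 10 zinc finger genes of the cluster at 19p12, on the short arm of human chromosome 19 next to the centromere: ZNF676, ZNF728, ZNF729, ZNF98, ZNF99, ZNF730, ZNF681, ZNF91, ZNF675 and ZNF726. They were taken by name from a table of 26372 gene symbols. The choice used measured values, because ZNF676 and ZNF728 were named as the strongest falls among genes with a ZNF symbol. The other 8 were named as belonging to their cluster. The contrast between the 2 groups is therefore given for these 10 genes as a description, without a p-value.

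RNA was measured in SH-SY5Y, a human neuroblastoma cell line with neuron-like features. Cells carried a lentiviral short hairpin RNA driven by the U6 promoter, either a control hairpin (shNC, genotype control) or a hairpin against TDP-43 (shTDP43, genotype TDP-43 knockdown), with 3 libraries in each group. TDP-43, the product of TARDBP, binds nucleic acids and acts in RNA processing. The protocol describes puromycin selection at 2 µg/mL for 2 weeks, and the labels name a single hairpin against TDP-43 and no rescue. Loss of TDP-43, other effects of the hairpin and differences between the infected populations cannot be told apart. The labels do not say whether replicates were separate cultures, so p-values measure only the spread between these libraries, which may be technical.

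KRAB zinc finger proteins bind DNA through a tandem row of C2H2 zinc fingers and recruit the corepressor TRIM28 (KAP1) through the KRAB domain at their amino end. TRIM28 in turn brings the histone methyltransferase SETDB1 and heterochromatin proteins, and many of the targets are transposable elements. The 19p12 genes arose by repeated duplication in primates, so neighbours are close copies of one another. ZNF91 is known to silence SVA retrotransposons and ZNF93, another gene of the cluster, to silence L1 elements of primates.

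The targeted gene, TARDBP, had 56.1, 56.2 and 56.6 FPKM (fragments per kilobase of transcript, scaled to library size) in the shNC libraries and 36.0, 33.1 and 34.8 FPKM in the shTDP43 libraries. It stood at 61.5% of control (log2 difference -0.69, SE 0.03; limma adjusted p = 2.84e-06), and the exact permutation test (two-sided) reached p = 0.1, which is the smallest value possible with 3 against 3 libraries. Of 12 neuroblastoma markers 11 reached 1 FPKM in each library, the exception being tyrosine hydroxylase (TH, at most 0.207 FPKM). Their levels also moved with the group, in both directions. STMN2 was at 42.8% and ELAVL4 at 66.6% of control, while CHGA was at 175% and TBX2 at 144%. Of 17 markers of blood, endothelial, epithelial, fibroblast and Schwann cells, 3 to 5 reached 1 FPKM in an shNC library and 1 or 2 in an shTDP43 library. Between 4 and 6 of them were listed at 0 in a library, the T cell gene CD3E in each of the 6. The summed level of these markers was 9.72 to 11.1 FPKM in shNC and 5.08 to 6.05 FPKM in shTDP43, so it moved with the group, and its part in the results was not tested. The absolute depth is unknown. Relative depth, estimated from the steps among 1655 genes of low value, was 1.158 to 1.28 in the shNC libraries and 1 to 1.115 in the shTDP43 libraries, and its part in the values of low genes was not tested either.

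Because reads can be shared between close copies, the sequences are shown before the values. In the transcripts of GENCODE release 29, the longest open reading frames of ZNF676 and ZNF728 had 1863 and 1869 bases, each with 14 zinc fingers of the canonical cysteine and histidine spacing. Only the 10 genes and ZNF208, a neighbour that is not among them, were aligned with both. Of these ZNF208 was the closest, with 93.3% identity to ZNF676 and 92.8% to ZNF728 over the aligned coding bases. ZNF676 and ZNF728 shared 89.0%. The first 120 coding bases of these genes, which encode part of the KRAB domain, are shown with the bases that differ from ZNF676 in capitals (7 in ZNF728 and 5 in ZNF208).
ZNF676: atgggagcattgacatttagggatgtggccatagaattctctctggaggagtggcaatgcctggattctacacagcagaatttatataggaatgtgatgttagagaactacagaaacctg
ZNF728: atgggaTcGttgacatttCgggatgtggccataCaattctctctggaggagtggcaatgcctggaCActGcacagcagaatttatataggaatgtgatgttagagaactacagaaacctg
ZNF208: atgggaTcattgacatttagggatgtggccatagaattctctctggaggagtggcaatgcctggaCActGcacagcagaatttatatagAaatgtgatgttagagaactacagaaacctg

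ZNF729 and ZNF99 formed another close pair, with 91.1% identity. Their reading frames held 34 and 25 canonical fingers, and of the 10 genes only ZNF91, with 31, also had more than 16. The first gap-free stretch of 120 bases in their alignment, from coding base 57 in ZNF99 and 138 in ZNF729, held 14 differing bases, in capitals for ZNF729.
ZNF99: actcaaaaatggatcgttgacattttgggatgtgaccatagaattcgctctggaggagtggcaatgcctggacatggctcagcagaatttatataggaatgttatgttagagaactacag
ZNF729: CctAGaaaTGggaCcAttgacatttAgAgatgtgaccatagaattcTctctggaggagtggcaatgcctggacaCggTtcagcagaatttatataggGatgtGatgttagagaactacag

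ZNF98 had the least sequence of its own. It was 99.0% identical to its neighbour ZNF492 over 1596 aligned coding bases, and the stretch from coding base 124 of ZNF98, aligned to the start of the ZNF492 reading frame, differed at 2 of 120 bases (capitals in ZNF492).
ZNF98: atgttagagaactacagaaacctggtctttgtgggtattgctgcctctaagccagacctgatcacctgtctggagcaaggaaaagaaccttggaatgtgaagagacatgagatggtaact
ZNF492: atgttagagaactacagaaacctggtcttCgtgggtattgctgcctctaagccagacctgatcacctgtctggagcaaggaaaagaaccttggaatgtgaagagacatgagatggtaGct

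Of all 50-base words in the ZNF98 reading frame, 65.9% also occurred in a transcript of another gene, most often ZNF492. The share was 2.32% in ZNF730, 4.1% in ZNF675 and between 7.78% and 16.7% in the other 7 genes. With 75-base words it was 50.6% in ZNF98 and at most 8.82% in the other 9. The labels do not state how reads with several matches were counted, so the split of reads between ZNF98 and ZNF492 is uncertain.

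ZNF676 (GRCh38 chromosome 19, 22179089 to 22260304) had 3.32, 3.14 and 2.71 FPKM in the shNC libraries and 0.654, 0.972 and 0.664 FPKM in the shTDP43 libraries. The groups did not overlap, and the highest shTDP43 library lay well under the lowest shNC library. The mean went from 3.06 ± 0.312 to 0.763 ± 0.181 FPKM (SD, n = 3 each), 25.0% of control, a log2 difference of -1.20 (SE 0.10). Log2 differences here are on the scale of log2(FPKM + 1), which understates the change of low genes, whereas percentages of control are ratios of mean FPKM.

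ZNF728 (22974883 to 23003176) had 2.11, 1.36 and 1.48 FPKM in shNC and 0.359, 0.379 and 0.327 FPKM in shTDP43. The control libraries differed among themselves, with replicate 1 highest, while the 3 knockdown libraries were close together. The mean went from 1.65 ± 0.405 to 0.355 ± 0.0260 FPKM, 21.5% of control, the lowest ratio of the 10 genes (log2 difference -0.96, SE 0.12).

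ZNF729 (22286441 to 22317176) had 1.13, 1.28 and 1.21 FPKM in shNC and 0.279, 0.312 and 0.394 FPKM in shTDP43, or 27.2% of control. Its mean over the 6 libraries, 0.768 FPKM, was under the 1 FPKM required for the test across genes, and that of ZNF728, 1.002 FPKM, was just over it. ZNF676, ZNF728, ZNF98 and ZNF99 all had shTDP43 means under 1 FPKM, so these 4 genes reached that level only through their control libraries.

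ZNF99 (22752183 to 22784151), the close copy of ZNF729, had 2.17, 1.97 and 2.19 FPKM in shNC and 0.846, 0.955 and 0.841 FPKM in shTDP43. It stood at 41.7% of control (log2 difference -0.73, SE 0.08). ZNF98 (22391019 to 22422346) had 1.79, 2.21 and 2.41 FPKM in shNC and 1.18, 0.811 and 0.870 FPKM in shTDP43. Its means were 2.13 ± 0.316 and 0.953 ± 0.198 FPKM (log2 difference -0.68, SE 0.11). For both genes each knockdown library lay below each control library. In bulk RNA, fewer cells that express a gene and less RNA per cell cannot be told apart.

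**Figure D1:**
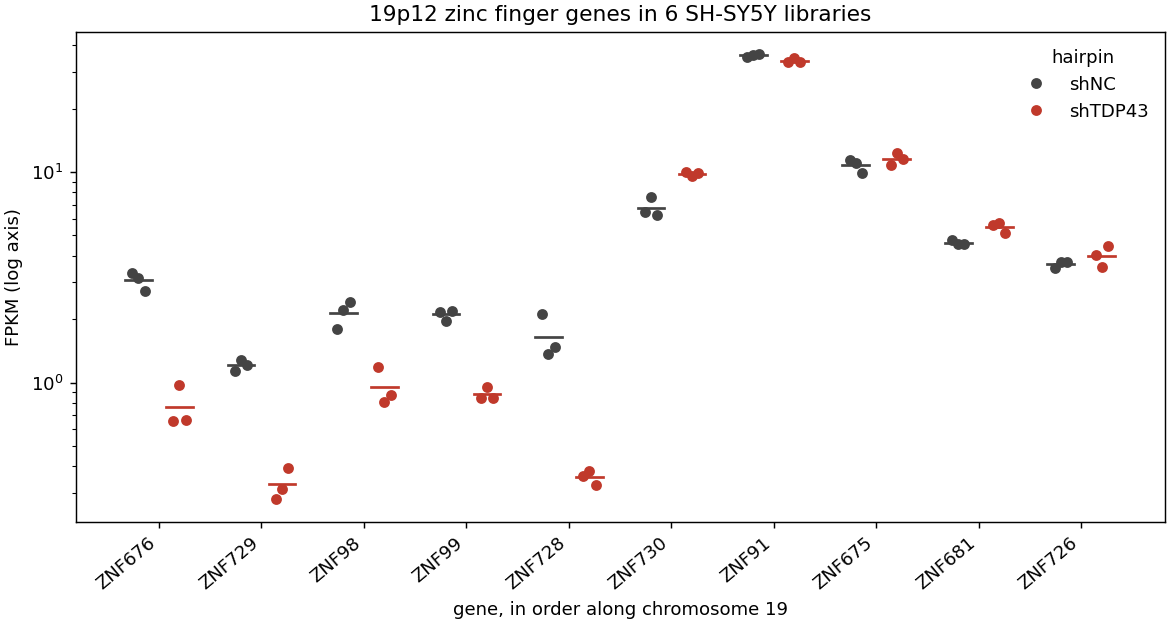
FPKM of the 10 zinc finger genes on a log axis, in order along chromosome 19, with 1 point per library (3 shNC in grey, 3 shTDP43 in red) and a line at each group mean. ZNF676, ZNF729, ZNF98, ZNF99 and ZNF728 lie between 1.13 and 3.32 FPKM in shNC and between 0.279 and 1.18 FPKM in shTDP43, whereas ZNF91 lies between 33.2 and 36.2 FPKM throughout.

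The other 5 genes lie on the far side of ZNF728 from ZNF676 and were better expressed. ZNF730 (23075211 to 23147221), the next zinc finger gene of the table after ZNF728, had 6.46, 7.64 and 6.23 FPKM in shNC and 9.99, 9.61 and 9.92 FPKM in shTDP43. All knockdown libraries were above all control libraries, in the opposite direction to its neighbour, and the mean went from 6.78 ± 0.756 to 9.84 ± 0.202 FPKM, 145% of control (log2 difference 0.48, SE 0.07).

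ZNF681 (23739195 to 23758891) was higher by a smaller amount, with 4.74, 4.55 and 4.54 FPKM in shNC against 5.63, 5.72 and 5.14 FPKM in shTDP43 (119% of control; log2 difference 0.21, SE 0.06). The start of ZNF681 overlaps that of RPSAP58 (RPSA2), a ribosomal protein SA copy that was itself at 139% of control, and without knowledge of strand use reads in the overlap cannot be assigned.

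ZNF91 (23305004 to 23395471), the SVA repressor, was by far the most abundant of the 10 genes in FPKM, with 35.3, 36.1 and 36.2 FPKM in shNC and 33.2, 34.7 and 33.5 FPKM in shTDP43. The groups did not overlap, but the difference was small, 94.3% of control (log2 difference -0.08, SE 0.03).

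ZNF675 (23652801 to 23687212), whose product is known to inhibit TRAF6 signalling, had 11.4, 11.1 and 9.95 FPKM in shNC and 10.8, 12.3 and 11.5 FPKM in shTDP43. ZNF726 (23914886 to 23944714) had 3.50, 3.74 and 3.75 FPKM in shNC and 4.04, 3.53 and 4.47 FPKM in shTDP43. In both the groups overlapped, with intervals of the log2 difference of -0.06 to 0.23 for ZNF675 and -0.08 to 0.28 for ZNF726 (95%).

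Of the 10 genes, 9 reached the level tested across genes (a mean of at least 1 FPKM). Past a limma adjusted p of 0.05 were 5 in the lower direction (ZNF676, ZNF728, ZNF98, ZNF99 and ZNF91), where the share among all 13263 tested genes was 19.6%, and 2 in the higher direction (ZNF730 and ZNF681), where it was 18.5%. When a mean of 0.1 FPKM was enough, ZNF729 joined those lower, against 17.0% of 16579 genes. By library values, 5 of the 9 tested genes had all shTDP43 libraries below all shNC libraries (25.4% of all tested genes) and 2 had them all above (25.3%). Nothing is read from these counts, since the contrast was used in choosing the genes. The calls of ZNF91 and ZNF681 were the fragile ones. That of ZNF91 was lost without any 1 of 5 libraries (all but shTDP43 replicate 2), and that of ZNF681 without shNC replicate 2 or 3 or shTDP43 replicate 1 or 2.

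The table holds 23 further zinc finger genes of 19p12, all tested. Of these 16 rose (69.6%, against 18.5% of all tested genes), 1 fell (4.3%, against 19.6%) and 6 did not pass the test, with a median log2 difference of 0.26 against 0.00 over all tested genes. Without both shNC replicate 1 and shTDP43 replicate 3, the libraries with little SNORD3A, 11 of the 23 passed as higher. ZNF737 rose from 6.31 ± 0.289 to 9.10 ± 0.254 FPKM (SD, n = 3), 144% of control (log2 difference 0.47, SE 0.05; limma adjusted p = 0.000194). The transcribed pseudogene ZNF826P rose to 147% (limma adjusted p = 0.0133) and ZNF90 to 138% of control (limma adjusted p = 0.0113). Neither passed without that pair of libraries, at limma adjusted p = 0.0638 and 0.059. ZNF724P rose to 132% (limma adjusted p = 0.0336). The groups of ZNF724P overlapped, and its call was lost without a filter on low values (adjusted p = 0.0809) and without shNC replicate 2 or 3 or shTDP43 replicate 2 or 3, at adjusted p values of up to 0.106 by limma. ZNF93, the repressor of L1 elements, rose to 125% of control (limma adjusted p = 0.0115) and is named here for that role, after its values were seen.

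The 1 that fell was ZNF208 (21939815 to 22010943), the only 1 of the 23 whose coding sequence was aligned with those of ZNF676 and ZNF728. It had 3.45, 3.66 and 3.61 FPKM in shNC and 2.05, 2.13 and 1.80 FPKM in shTDP43, 55.9% of control (log2 difference -0.61, SE 0.07; limma adjusted p = 0.000339). No library of one group reached the range of the other. Without each library in turn the log2 difference lay between -0.65 and -0.56. Some coding sequence is common to ZNF208, ZNF676 and ZNF728, and its part in their values was not tested.

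Set in order along the chromosome, the 33 zinc finger genes spanned 4264 kb (19865830 to 24129968). The genes under 60% of control, ZNF208, ZNF676, ZNF729, ZNF98, ZNF99 and ZNF728, all lay in a stretch of 1063 kb in which the table has 8 zinc finger genes. The bounds of that stretch were drawn after the values were seen. The other 2 genes in it were ZNF257, with 3.95, 4.33 and 4.04 FPKM in shNC and 3.46, 4.25 and 3.23 FPKM in shTDP43, and ZNF492, with 5.97, 5.93 and 5.50 FPKM in shNC and 6.13, 6.05 and 6.04 FPKM in shTDP43. Neither passed the test (limma adjusted p = 0.23 and 0.388), but without shTDP43 replicate 2 ZNF257 was lower (limma adjusted p = 0.0396). Outside the stretch 4 of 25 genes were under 100% of control, none was under 60%, and the median was 123%, against 43.2% within it.

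**Figure D2:**
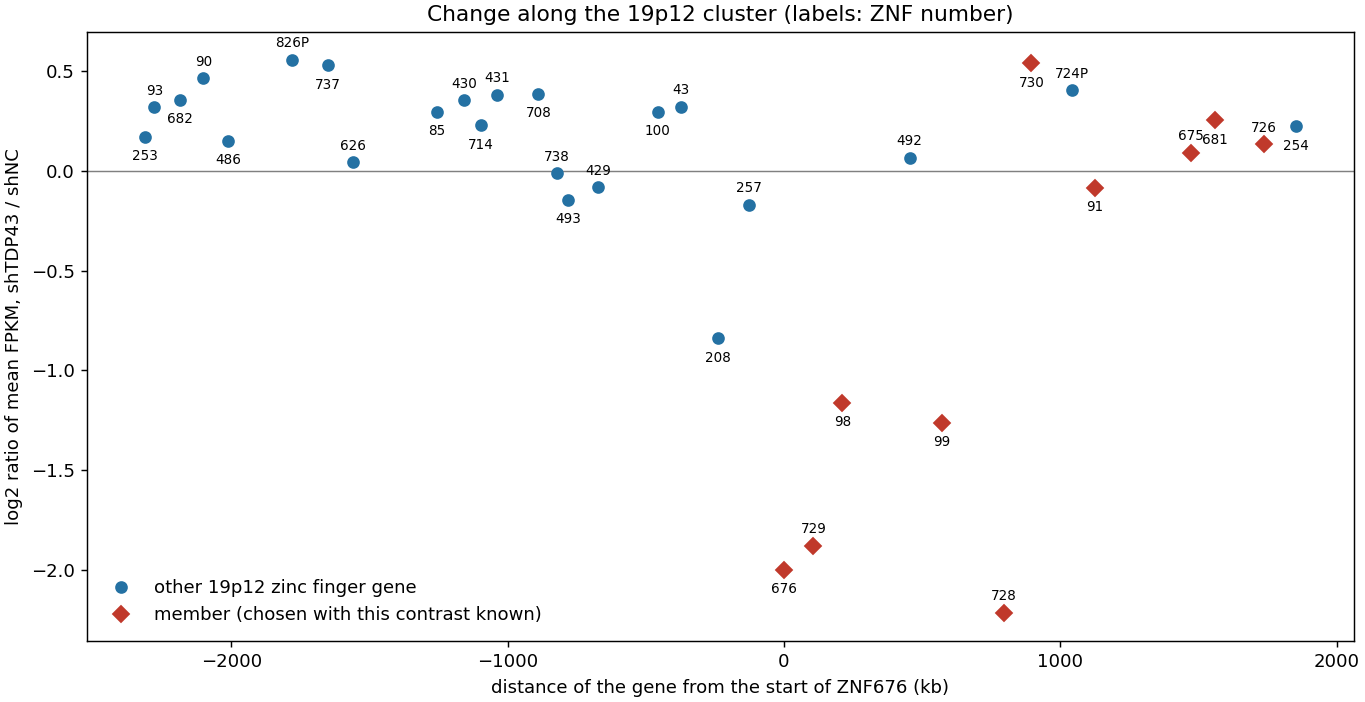
Log2 ratio of mean FPKM (shTDP43 over shNC) of the 33 zinc finger genes of 19p12 against the distance from the start of ZNF676 in kb, labelled by ZNF number, with the 10 chosen genes as red diamonds. The 6 genes under 60% of control lie between ZNF208 and ZNF728, with ZNF257 and ZNF492 among them near 0.

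The 5 low genes also had the lowest levels of the 10. They had means of 0.768 to 1.91 FPKM over the 6 libraries, against 3.84 to 34.8 FPKM for the other 5. Those means include the fall itself. In the shNC libraries alone the gap was narrower, with means of 1.21 to 3.06 FPKM against 3.665 to 35.8 FPKM. Between 0.5 and 3 FPKM the table holds 3233 genes, of which 211 (6.53%) were under 50% of control, and 59 protein-coding ZNF genes outside the 10, of which 2 were. Those 2 were ZNF718 on chromosome 4 (36.6% of control) and ZNF404 on chromosome 19 (43.6%). The median of these 59 genes was 97.1% of control. Of 480 protein-coding ZNF genes averaging 0.5 FPKM or more, ZNF728, ZNF676 and ZNF729 had the 3 lowest ratios. For ZNF728 and ZNF676 that restates how they were chosen. Under 0.5 FPKM lower ratios occurred, as in ZNF479, at 14.55% of control with a mean of 0.136 FPKM.

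**Figure D3:**
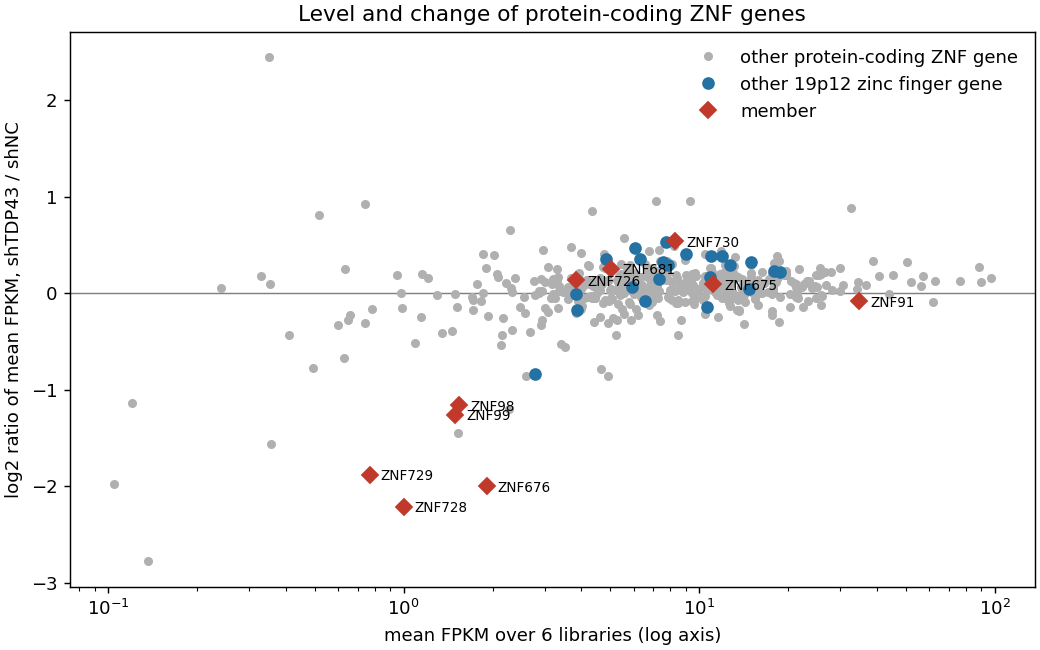
Mean FPKM over the 6 libraries (log axis) and log2 ratio of mean FPKM (shTDP43 over shNC) of protein-coding ZNF genes averaging 0.1 FPKM or more. The 5 low genes lie between 0.768 and 1.91 FPKM at 21.5% to 44.6% of control, and most other 19p12 genes lie above 0 on the vertical axis.

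The 495 tested genes with a ZNF symbol outside the 10 were ranked by likeness to ZNF676 and to ZNF728, as the root mean square difference of log2(FPKM + 1), taken relative to each gene's shNC mean, over the 6 libraries. This measure carries the contrast that chose ZNF676 and ZNF728, so it ranks genes largely by their fall on the log2(FPKM + 1) scale. That scale understates the change of low genes. The same 5 genes were nearest to both, and nothing is read from that: ZNF404, ZNF718, ZNF229, ZNF610 and ZNF208. ZNF404 was nearest to ZNF676 (0.333) and ZNF229 to ZNF728 (0.226). ZNF229 and ZNF610 went to 55.3% and 58.0% of control. ZNF208 is the 1 of these 5 in the 19p12 cluster, whose other low genes were not ranked because they are among the 10. By the same measure ZNF728 differed from ZNF99 by 0.196, from ZNF676 by 0.213 and from ZNF729 by 0.224. Each was less than the 0.226 of ZNF229, but ZNF98 was farther from ZNF728, at 0.294. ZNF99, ZNF729 and ZNF98 differed from ZNF676 by 0.352, 0.355 and 0.424, each more than the 0.333 of ZNF404.

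Close copies also occur among the promoters. The RefSeq promoter table (GRCh38.p14; from 250 bases before to 50 bases after a gene's start) has windows for ZNF726, ZNF730, ZNF675, ZNF681 and ZNF91. ZNF676, ZNF728, ZNF729, ZNF98 and ZNF99 have no entry there. The windows of ZNF730 and ZNF681 (higher in shTDP43), ZNF91 (nearly level) and ZNF208 (lower) are shown because these genes differ in direction. Capitals mark TCTGTCACTCAGG, the longest run of letters common to the 5 windows, and CCAAT or its complement ATTGG. The windows are at chr19:23116775-23117074 on the plus strand for ZNF730, and on the minus strand at chr19:23758842-23759141 for ZNF681, chr19:23395422-23395721 for ZNF91 and chr19:22010894-22011193 for ZNF208. The ZNF730 window surrounds a start that lies 42 kb inside the ZNF730 gene as RefSeq bounds it.
ZNF730: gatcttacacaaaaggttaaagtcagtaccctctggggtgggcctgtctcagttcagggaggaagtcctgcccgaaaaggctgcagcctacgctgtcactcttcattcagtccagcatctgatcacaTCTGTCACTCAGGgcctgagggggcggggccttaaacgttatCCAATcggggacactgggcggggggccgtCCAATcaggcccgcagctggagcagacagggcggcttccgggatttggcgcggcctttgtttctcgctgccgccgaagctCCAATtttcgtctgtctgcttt
ZNF681: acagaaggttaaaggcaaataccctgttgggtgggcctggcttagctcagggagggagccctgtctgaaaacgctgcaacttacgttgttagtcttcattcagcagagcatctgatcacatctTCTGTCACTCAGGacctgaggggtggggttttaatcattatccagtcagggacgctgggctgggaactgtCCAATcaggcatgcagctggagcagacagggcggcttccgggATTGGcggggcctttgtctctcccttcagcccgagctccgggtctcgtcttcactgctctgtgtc
ZNF91: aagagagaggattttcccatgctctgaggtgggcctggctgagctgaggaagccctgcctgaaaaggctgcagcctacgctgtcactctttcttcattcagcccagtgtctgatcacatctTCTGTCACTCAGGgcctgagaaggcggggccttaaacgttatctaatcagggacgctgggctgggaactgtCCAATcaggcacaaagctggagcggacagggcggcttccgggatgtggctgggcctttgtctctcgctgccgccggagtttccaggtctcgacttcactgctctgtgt
ZNF208: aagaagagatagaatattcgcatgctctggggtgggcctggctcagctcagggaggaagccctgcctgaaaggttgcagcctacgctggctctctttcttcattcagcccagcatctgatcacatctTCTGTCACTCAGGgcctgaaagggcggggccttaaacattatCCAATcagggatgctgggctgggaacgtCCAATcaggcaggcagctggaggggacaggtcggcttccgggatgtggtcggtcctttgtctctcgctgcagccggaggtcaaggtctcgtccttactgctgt

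The 13-base run was chosen from these windows. On either strand it also occurred in 11 of 20 windows of the other 19p12 genes, ZNF208 included, in 0 of 189 windows of other ZNF genes of chromosome 19 and in 20 of all 27305 windows (0.0732%). CCAAT on either strand, the letters of a common promoter element, occurred in all 5 windows and in all 20 of the other 19p12 genes. It occurred in 47.1% of windows of other chromosome 19 ZNF genes and 35.7% of all windows. The number of CpG dinucleotides per window was 16 in ZNF730 and ZNF726, 11 in ZNF91, 10 in ZNF675 and ZNF208 and 9 in ZNF681, against a median of 14 over all windows. Because the run was chosen as common to the 5 windows, its presence in ZNF730, ZNF681 and ZNF91 was fixed by that choice. Among the 19p12 genes clearly lower in shTDP43, only ZNF208 has a window. Some genes that rose, such as ZNF682 and ZNF430, lacked the run. The matches describe sequence only, and a link between promoter letters and direction was not tested.

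Elsewhere on chromosome 19, 203 of 213 protein-coding ZNF genes outside 19p12 were tested, and 24 rose, 27 fell and 152 did not pass. Their median log2 difference was 0.00, and 11.8% were higher and 13.3% lower, against 18.5% and 19.6% of all tested genes. Among genes whose products KRAB zinc fingers recruit, or that act with those, 17 of 25 rose and 1 fell (median log2 difference 0.11). The largest changes were in the histone methyltransferase genes SUV39H1 (145% of control; limma adjusted p = 0.00139) and SUV39H2 (119.5% of control; limma adjusted p = 0.00209). SETDB1 rose to 111% of control (limma adjusted p = 0.0102; 0.0834 without the pair of libraries low in SNORD3A). TRIM28 rose to 107% of control (limma adjusted p = 0.0307). That call was lost without shNC replicate 1 or 3 or shTDP43 replicate 1 or 3 (adjusted p of up to 0.0902 by limma) and without the low-SNORD3A pair (0.188). Transposable elements themselves were not analysed here.

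**Figure D4:**
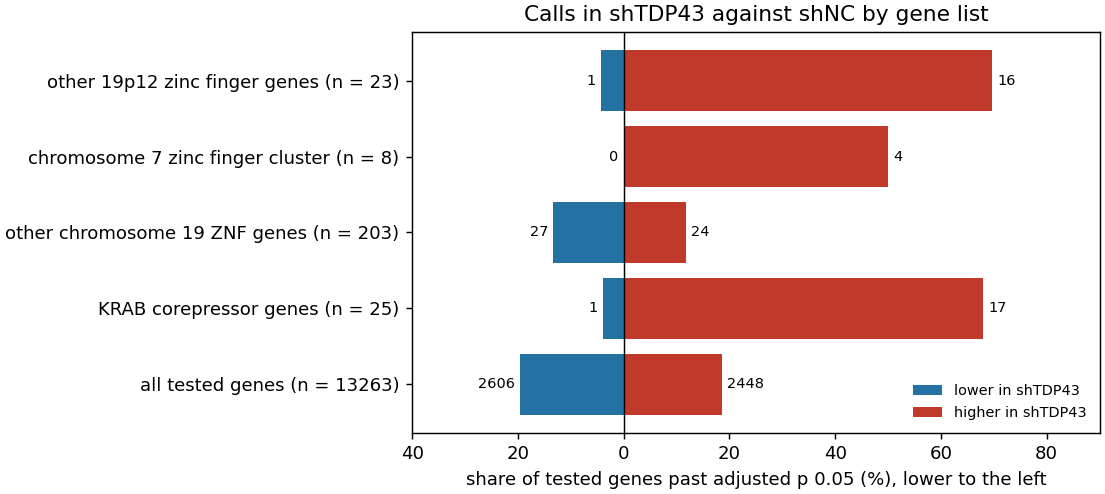
Share of tested genes past a limma adjusted p of 0.05 in each direction, with lower to the left and higher to the right, and the number of genes beside each bar. The other 19p12 zinc finger genes have 16 higher and 1 lower of 23, while all tested genes have 2448 higher and 2606 lower of 13263.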

How the data were processed

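Poly(A) RNA of 6 SH-SY5Y libraries, 3 shNC and 3 shTDP43, was sequenced from directional libraries, per the labels' protocols. The authors deposited 1 table of FPKM per gene symbol and library. Per the submitters' processing notes, the tools were TopHat2 2.1.0, SAMtools and Cuffdiff 2.2.1, with build hg38. No source used here gives the annotation, strand setting or scaling. The table has no counts, so no count model was used.

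FPKM were transformed to log2(FPKM + 1) and fitted in limma 3.58.1 under R 4.3.3 (group as the only term, trended variance moderation, two-sided, Benjamini-Hochberg adjustment over the 13263 genes averaging 1 FPKM or more). Symbols were matched to RefSeq by current or older name (95.6%). The 10 genes, the gene lists and the tests were chosen with earlier results of these data known. Besides the 10 and TARDBP, the text names the 4 largest rises and falls among other 19p12 genes that passed. It also names the 2 largest changes of the chromosome 7 and corepressor lists, TRIM28 and SETDB1. Further named are the tested genes derived from or associated with retroviruses or retrotransposons, and 5 ZNF genes nearest to ZNF676 and to ZNF728. ZNF93, ZNF257, ZNF492, ZNF679, ZNF716 and RPSAP58 were named after their values were seen. The fit was run on simulated data with known rises. It called 23 of 50 genes raised by a factor of 1.2 in FPKM + 1, 48 of 50 raised by 1.5, and 8 of 13063 unchanged genes. Only rises were simulated, in genes above the level of ZNF728, so falls of such low genes were not tested. The 14 alternatives covered the pseudocount, the filter, the scaling, a replicate block and left-out libraries.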

Additional observations from a re-analysis of the deposited data

How the results depend on the processing

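The number of the 10 genes past the threshold was 5 lower and 2 higher. Without each library in turn it was 4 to 5 lower and 1 to 2 higher, and with a mean of at least 5 FPKM, which leaves 4 of them tested, 1 lower. Of the other 19p12 zinc finger genes, 1 to 3 were lower and 13 to 15 higher without each library in turn, and 11 higher without the pair of libraries with little SNORD3A (shNC replicate 1 and shTDP43 replicate 3). At 5 FPKM, which leaves out ZNF208, 0 of 19 were lower by limma, and 0 at an unadjusted p under 0.05. Other ZNF genes of chromosome 19 went to 16 lower at 5 FPKM, 13 higher without a filter, and 17 lower and 12 higher without that pair, which had 11540 and 8551 FPKM of this small nucleolar RNA against at least 137200 FPKM in the other 4. They ran from 20 to 24 lower and from 14 to 20 higher without each library. The corepressor list had 0 lower (1 at an unadjusted limma p under 0.05) and 11 higher without that pair, and 12 to 15 higher without each library. The chromosome 7 list had 1 lower and 5 higher, and the retrovirus-linked list had 2 higher, without a filter or at 0.1 FPKM. The latter also had 2 higher with quantile normalization. ERVMER34-1 turned to -0.02 without shNC replicate 2 and to -0.001 without shTDP43 replicate 2, and ran from -0.02 to 0.039 without each library. ERVH48-1 passed without a filter, at 0.1 FPKM and with quantile normalization, and HHLA3 with a replicate block or without shTDP43 replicate 1. Across 41 named genes and these alternatives, 484 of 518 values kept direction and call.

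Correlations of deviations ran from -0.0683 to 0.112 for same-numbered libraries and from -0.199 to 0.135 for differently numbered ones. These values cannot tell whether the numbers pair the samples, and the main fit assumed no pairing. With a replicate block TRIM28, ZNF724P and ZNF91 did not pass, 4 of the 10 genes were lower and 2 higher, and 13 of the other 19p12 genes higher. With a pseudocount of 0.1 the log2 difference of ZNF676 was -1.89 and that of ZNF728 -1.92. Depth in reads is unknown, which limits what can be said of values as low as those of ZNF728 and ZNF729 in shTDP43 (0.279 to 0.394 FPKM).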

Other observations

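A list of related zinc finger genes of chromosome 7, of the same subfamily as ZNF91, had 11 genes in the table. All start between 64045434 and 65373855 except ZNF716, which starts at 57450177, apart from that cluster. Of the 8 tested, 4 rose (against 18.5% of all tested genes) and 0 fell (against 19.6%) by limma. At an unadjusted p under 0.05 the counts were also 4 and 0. ZNF117 had 23.0, 23.1 and 23.0 FPKM in shNC and 41.2, 43.6 and 42.7 FPKM in shTDP43, 184% of control (limma adjusted p = 3.89e-07). ZNF107 rose to 130% of control (limma adjusted p = 0.000222). The groups were far apart in both genes. ZNF716, listed at about 0.5 FPKM in shNC and under the level tested, was at 33.8% of control, and ZNF679, also under that level, went the other way, with 0.509 FPKM in shNC and 0.968 FPKM in shTDP43 (190% of control).

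ZNF117 (chromosome 7, 64971772 to 64991036) overlaps ERV3-1 (64990356 to 65006687), which carries the envelope gene of an endogenous retrovirus. ERV3-1 had 22.3, 20.6 and 21.6 FPKM in shNC and 38.2, 39.1 and 38.5 FPKM in shTDP43, 179% of control (limma adjusted p = 1.41e-06). The strands of both genes were not looked up, and reads in the overlap cannot be assigned from these values. Whether ZNF117 and ERV3-1 rose separately was not tested. Of 10 tested genes derived from or associated with retroviruses or retrotransposons, ERV3-1 was the 1 that rose.

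Of these 10, 30.0% fell and 10.0% rose, against 19.6% and 18.5% of all tested genes. The 3 that fell were the domesticated retrotransposon genes RTL1 (63.2% of control; limma adjusted p = 2.6e-07), PEG10 (77.7%; limma adjusted p = 1.07e-05) and ARC (80.0%; limma adjusted p = 0.00164). RTL1 and PEG10 are imprinted genes with roles in the placenta. The remaining 6 did not pass. ERVFRD-1 and ERVW-1, the syncytin genes, had 116% and 112% of control (limma adjusted p = 0.172 and 0.441). ERVK13-1 had 105%, ERVMER34-1 101.4%, ERVH48-1 129% and HHLA3 68.0% of control, with limma adjusted p values of 0.386, 0.92, 0.0723 and 0.176.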
